A study of Mus musculus with 4 samples.

Results

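The genes described here are 10 markers of macrophages and monocytes, Adgre1, Csf1r, Cd68, Lyz2, Mrc1, Cd163, Ccr2, Cx3cr1, Clec12a and Lgals3. They were chosen by name, as the rows of the count tables whose mouse Ensembl identifier carries one of these symbols, and all 10 were found among the 55401 genes counted. The samples were C57BL/6 mouse tissues after cecal ligation and puncture (CLP), an operation that lets gut bacteria leak into the abdomen and causes sepsis. A CLP library and a CLP+MLT library, the latter from mice that had also received melatonin (MLT), were compared within kidney and within heart. Per the study's methods the mice were male and aged 8 weeks, the melatonin group drank water with 25 μg/ml of it over 14 days, CLP followed on day 15, and kidneys were taken 24 h later. These methods describe no hearts, so no dose or time is known for them. The melatonin libraries are titled CLP+MLT4, and the 4 is not explained. All 4 libraries come from mice with CLP, and sham mice were not used here. Whether a library holds 1 mouse or several, and whether a kidney and a heart came from the same mouse, is not stated.

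Each group had 1 library, so there is no replicate, no difference could be set against the spread between mice, and no p-value is given. A gene was called higher or lower when the libraries differed at least 1.5-fold and the 95% exact Clopper-Pearson interval of the log2 ratio, CLP+MLT over CLP, left out 0. Such a call compares 2 libraries, not 2 treatments. Every interval covers counting error only, and takes each read as an independent molecule, which copies made by PCR are not. Levels between libraries are given in scaled counts-per-million (CPM) of the reads on genes, with the scaling factors of the TMM method, and levels between genes within a library in transcripts-per-million (TPM), which account for gene length.

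Macrophages live in every organ as long-lived resident cells, and monocytes are their short-lived relatives in blood, which enter inflamed tissue and can become macrophages there. Both kinds of cell carry the receptor that Csf1r encodes, and resident macrophages tend to carry scavenger receptors such as those of Mrc1 and Cd163. Entering monocytes carry the chemokine receptor of Ccr2. In a whole tissue, fewer cells of a type and less RNA of a gene per cell cannot be told apart. None of the 10 genes is limited to these cells: Lgals3 is also expressed by epithelium, Lyz2 and Clec12a also by neutrophils, Clec12a and Cx3cr1 also by dendritic cells, and Adgre1 also by eosinophils.

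Between 15883057 and 22927905 reads per library were counted on genes, of which 2962 to 4489 fell on the 10 markers. The tissue labels were borne out by defining genes. A list of 8 kidney epithelium genes summed to 8083 and 9345 CPM in the kidney libraries and to 119 and 227 CPM in the heart libraries, whereas 8 cardiomyocyte genes summed to 31365 and 20734 CPM in heart and to 10.8 and 16.9 CPM in kidney. Reads on mitochondrial genes took 14.8% of the CLP kidney library and 24.2% of the CLP+MLT kidney library. In heart these shares were 31.6% and 35.99%. Their part in the differences described here was not tested. A count of 0 allowed a level of up to 0.122 to 0.195 CPM, depending on the library (3 counts).

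The stretch of DNA before a gene's start site is where transcription factors of the macrophage lineage bind, and 250 bases before a RefSeq start were at hand for 8 of the 10 genes, not for Adgre1 and Csf1r. Shown, 5′ to 3′ along the gene, are Clec12a, which had the largest ratio in heart, Lyz2, which was higher in both tissues, and Mrc1 and Cd163, which were lower together in heart. Capitals mark GAGGAA or its reverse complement, letters to which PU.1, the factor encoded by Spi1 that sets the macrophage fate, can bind. The windows lie in build GRCm38.p6 at chr6:129349994-129350243 on the plus strand (Clec12a), chr10:117282273-117282522 on the minus strand (Lyz2), chr2:14229164-14229413 on the plus strand (Mrc1) and chr6:124304401-124304650 on the plus strand (Cd163).

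Clec12a: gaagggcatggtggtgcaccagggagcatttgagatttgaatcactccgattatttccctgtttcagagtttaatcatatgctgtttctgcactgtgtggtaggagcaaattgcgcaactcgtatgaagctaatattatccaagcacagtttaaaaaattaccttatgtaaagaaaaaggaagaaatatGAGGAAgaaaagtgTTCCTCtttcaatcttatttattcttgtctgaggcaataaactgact
Lyz2: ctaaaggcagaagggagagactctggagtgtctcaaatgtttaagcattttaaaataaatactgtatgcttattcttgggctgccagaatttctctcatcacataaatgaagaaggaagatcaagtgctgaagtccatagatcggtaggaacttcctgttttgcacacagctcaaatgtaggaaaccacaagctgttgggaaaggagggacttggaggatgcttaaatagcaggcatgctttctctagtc
Mrc1: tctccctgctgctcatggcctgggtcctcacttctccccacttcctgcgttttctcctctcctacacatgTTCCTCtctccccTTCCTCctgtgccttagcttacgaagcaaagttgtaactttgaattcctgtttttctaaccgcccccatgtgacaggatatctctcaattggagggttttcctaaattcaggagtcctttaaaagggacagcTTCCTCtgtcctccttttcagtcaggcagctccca
Cd163: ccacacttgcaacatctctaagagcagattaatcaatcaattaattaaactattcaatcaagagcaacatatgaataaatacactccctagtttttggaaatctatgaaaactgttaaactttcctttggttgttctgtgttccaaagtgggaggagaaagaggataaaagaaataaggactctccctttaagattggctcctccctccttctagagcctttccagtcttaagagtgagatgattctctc

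GAGGAA occurred on either strand in 3 of the 8 windows, those of Mrc1, Clec12a and Cd68, and in 23.3% of all 32851 RefSeq windows of this length. Mrc1 held it 3 times and Clec12a held it 2 times. The letters TTGCNNAA, a form of the C/EBP site, were found before Clec12a and Cd68 on either strand, against 9.56% of all windows. TGANTCA, a loose form of the AP-1 site, was also found before Clec12a and Cd68, against 6.75% of all windows. Before Cd68 it read TGAGTCA, but before Clec12a it read TGAATCA, which is not the usual AP-1 site. The motifs did not overlap one another in the Clec12a window. The Clec12a window lies inside the gene as GENCODE draws it, since that annotation also has starts farther upstream. These matches describe letters and not binding.

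In kidney, 9 of the 10 markers had a mean of at least 10 counts and 4 of them were called higher in the CLP+MLT library, namely Lyz2, Clec12a, Csf1r and Adgre1. None was called lower. Among all 16932 kidney genes past this filter, 9.1% were called higher, 9.02% lower and 18.1% in either direction. The median log2 ratio was 0.41 over the 9 markers and 0.0029 over all genes. In heart, all 10 passed the filter, 4 were called higher (Clec12a, Adgre1, Ccr2 and Lyz2) and 2 were called lower (Mrc1 and Cd163). Among all 15871 heart genes past the filter, 8.51% were called higher, 10.4% lower and 18.9% in either direction. The median was 0.13 over the 10 markers and 0.0023 over all genes. Scaled by library size alone, the kidney ratios of all genes dropped by a median of 0.19 on the log2 scale, the markers' median became 0.21, and Adgre1 lost its call while Cd68 was called lower, with 5.32% of all genes higher and 15.7% lower.

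**Figure D1:**
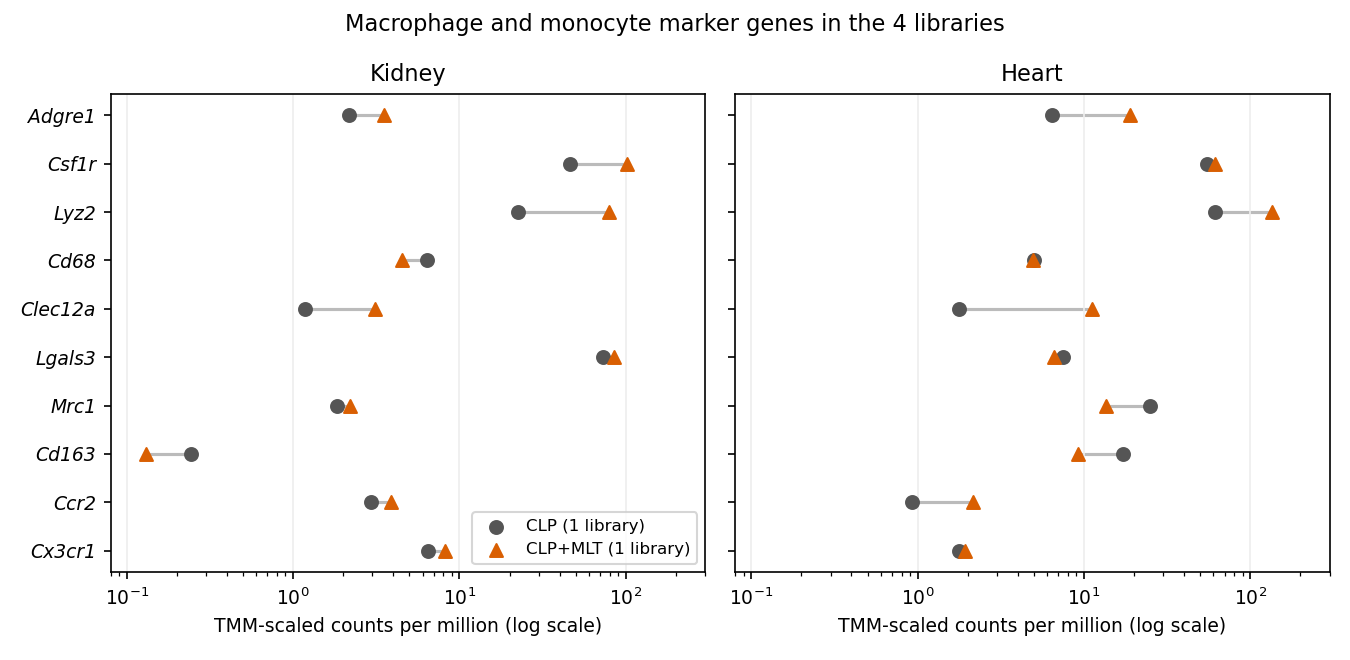
Level of each marker gene in the 4 libraries, in TMM-scaled CPM on a log axis, with kidney on the left and heart on the right. Grey circles are CLP and orange triangles CLP+MLT, 1 library each, without error bars because there are no replicates. The triangle of Lyz2 lies at 79.2 in kidney and 134 in heart, to the right of the circles at 22.5 and 61.2, whereas for Mrc1 and Cd163 in heart the triangles lie to the left.

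Adgre1 (ENSMUSG00000004730.15, chromosome 17 from 57358691 to 57483527, plus strand, GRCm38) encodes an adhesion receptor that is the classic surface marker of mouse macrophages. Its heart counts were 104 with CLP and 305 with CLP+MLT, or 6.38 and 18.8 CPM. The log2 ratio was 1.56 (1.24 to 1.90), a 2.94-fold higher level. In kidney the raw counts were almost alike, 53 and 54, and the CLP library was the more deeply sequenced one. After scaling, the kidney levels were 2.16 and 3.51 CPM, with a log2 ratio of 0.69 (0.12 to 1.27). This call stood close to the 1.5-fold limit and was lost when scaled by library size alone, where the ratio was 0.50.

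Csf1r (ENSMUSG00000024621.16, chromosome 18 from 61100598 to 61132149, plus strand) encodes the receptor for colony-stimulating factor 1 and interleukin 34, on which macrophages depend for survival. In kidney it went from 1140 to 1569 counts, from 46.5 to 102 CPM, and the log2 ratio was 1.13 (1.02 to 1.24). In heart the libraries held 897 and 991 counts, or 55.0 and 61.2 CPM, with a ratio of 0.15 (0.02 to 0.29) that was not called. Csf1r was thus 2.19-fold higher in the kidney of the CLP+MLT group and near level in its heart. Of its exon bases, 15.1% are shared with Hmgxb3 on the opposite strand, and since the strand setting of the counting is not given, reads there may belong to either gene. Hmgxb3 itself had log2 ratios of 0.43 (0.24 to 0.62) in kidney and 0.25 (0.15 to 0.34) in heart, and was not called in either.

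The genes for ligands of the receptors among the markers were listed too, with Hp, whose product Cd163 binds together with haemoglobin. Of these 8 genes, 6 passed the filter in kidney and all 6 had ratios below 0, as had 8423 of all 16932 kidney genes. Of the 6, 2 were called lower, or 3 by library size alone. Among all kidney genes 9.02% were called lower, or 15.7% by library size alone. Il34, made in kidney mostly by the tubular epithelium, was lower, with 1560 and 409 counts and a log2 ratio of −1.26 (−1.42 to −1.10). Csf1, the other Csf1r ligand, had 587 and 296 counts, with a ratio of −0.32 (−0.52 to −0.11) that was not called. In heart Csf1 had 1124 and 1266 counts and a ratio of 0.18 (0.06 to 0.30), and Il34 had 48 and 38 counts and a ratio of −0.32 (−0.98 to 0.32). So in kidney the receptor was higher while 1 of its ligands was lower, and in heart neither the receptor nor its ligands were called.

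Lyz2 (ENSMUSG00000069516.8, chromosome 10 from 117277331 to 117282321, minus strand) encodes lysozyme, an enzyme of phagocytes that cuts bacterial cell walls. It was the marker with the largest ratio in kidney, where 552 counts with CLP faced 1219 with CLP+MLT. Its kidney level went from 22.5 to 79.2 CPM, and the log2 ratio was 1.81 (1.67 to 1.96), a 3.52-fold higher level. In heart the counts were 998 and 2171, the levels 61.2 and 134 CPM, and the ratio 1.13 (1.02 to 1.24). Both CLP+MLT libraries lay above both CLP libraries. Of the 50-base windows in Lyz2 transcripts, 15.4% also occur in its neighbour Lyz1, the lysozyme of intestinal Paneth cells. Lyz1 had 0 counts in both kidney libraries and in the CLP heart library, and 19 in the CLP+MLT heart library, which makes it at least 6.38-fold higher there (against a floor of 3 counts in the CLP library).

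Cd68 (ENSMUSG00000018774.13, chromosome 11 from 69664213 to 69666153, minus strand) encodes a glycoprotein of the macrophage lysosome. In contrast to Lyz2, its raw counts in kidney were 157 and 70, and its levels 6.40 and 4.55 CPM. The log2 ratio of −0.49 (−0.92 to −0.08) did not reach 1.5-fold, but with library size alone it was −0.69 and was called lower. In heart Cd68 had 82 and 80 counts, a ratio of −0.03 (−0.49 to 0.44). Other lysosomal genes stood on the same side. All 12 genes of a list of lysosomal proteins of phagocytes, which many other cells also make, had ratios below 0 in kidney. Their median was −0.49 and 4 were called lower, or 7 when scaled by library size alone. Among all kidney genes 9.02% were called lower, or 15.7% when scaled by library size alone. The lysosomal genes called lower included the cathepsins Ctsl (−1.40) and Ctsb (−0.91) and the progranulin gene Grn (−0.82). In heart the median of the 12 was −0.36 and 1 was called lower, Ctsd (−1.10), against 10.4% of all heart genes.

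Clec12a (ENSMUSG00000053063.11, chromosome 6 from 129342691 to 129365303, plus strand) encodes an inhibitory C-type lectin receptor that senses uric acid crystals from dead cells. Both CLP libraries held 29 counts. The CLP+MLT libraries held 48 counts in kidney and 180 in heart. In heart the level went from 1.78 to 11.1 CPM, the log2 ratio was 2.62 (2.07 to 3.26), and the gene was 6.16-fold higher. In kidney the levels were 1.18 and 3.12 CPM and the ratio was 1.38 (0.70 to 2.12). The heart ratio was the largest of any marker in either tissue.

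Lgals3 (ENSMUSG00000050335.17, chromosome 14 from 47367751 to 47386160, plus strand) encodes galectin-3, a sugar-binding protein of activated macrophages and of injured kidney tubules. It had the most reads of any marker in the CLP kidney library, with 1795 counts in the CLP and 1307 in the CLP+MLT kidney. The levels were 73.2 and 84.9 CPM and the log2 ratio 0.21 (0.11 to 0.32), which was not called and became 0.02 when scaled by library size alone. In heart the counts were 122 and 107, with a ratio of −0.18 (−0.57 to 0.21). Lgals3 thus differed little within a tissue, and differed far more between kidney and heart.

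Mrc1 (ENSMUSG00000026712.3, chromosome 2 from 14229392 to 14332057, plus strand) encodes the mannose receptor, which takes up glycoproteins and marks resident and repair macrophages. In heart it fell from 407 to 220 counts and from 24.96 to 13.6 CPM, with a log2 ratio of −0.88 (−1.12 to −0.64). In kidney it had 45 and 34 counts, or 1.83 and 2.21 CPM, and a ratio of 0.26 (−0.42 to 0.94) that was not called. Cd163 (ENSMUSG00000008845.9, chromosome 6 from 124304656 to 124330527, plus strand) encodes the scavenger receptor that clears complexes of haemoglobin and haptoglobin. In heart it fell from 279 to 150 counts and from 17.1 to 9.26 CPM, with a ratio of −0.88 (−1.18 to −0.59). Both genes thus lost nearly the same share of their level in heart. Cd163 was scarce in kidney, with 6 and 2 counts, under the filter, and there the ratio of levels was 0.575 (0.0524 to 2.97). The haptoglobin gene Hp was lower in kidney, with 135 and 40 counts and a log2 ratio of −1.08 (−1.63 to −0.56), and had 319 and 261 counts in heart, a ratio of −0.28 (−0.52 to −0.04) that was not called.

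Ccr2 (ENSMUSG00000049103.14, chromosome 9 from 124101950 to 124113557, plus strand) encodes the receptor through which classical monocytes follow the chemokine of Ccl2 out of the marrow. In heart it had 15 and 35 counts, or 0.920 and 2.16 CPM, a log2 ratio of 1.21 (0.32 to 2.21) that rests on few reads. In kidney it had 72 and 60 counts, 2.94 and 3.90 CPM, and a ratio of 0.41 (−0.11 to 0.92) that was not called. Of the chemokines that bind Ccr2, Ccl2 had 79 and 111 counts in heart, a ratio of 0.50 (0.07 to 0.94) that was not called. Ccl7 was lower in heart, at −0.90 (−1.37 to −0.46), and so was Ccl12, at −0.86 (−1.49 to −0.27). In kidney none of these chemokines was called, Ccl2 having 28 and 12 counts, Ccl12 having 30 and 9, and Ccl7, under the filter, having 18 and 1. Ccl8 was under the filter in both tissues.

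Cx3cr1 (ENSMUSG00000052336.7, chromosome 9 from 119901616 to 120069879, minus strand) encodes the fractalkine receptor of patrolling monocytes and of resident macrophages and dendritic cells of the kidney. It had 159 and 126 counts in kidney, or 6.48 and 8.18 CPM, and a log2 ratio of 0.34 (−0.01 to 0.68). In heart it had 29 and 31 counts, or 1.78 and 1.91 CPM, and a ratio of 0.10 (−0.67 to 0.89). Neither was called, and the heart interval allows a change of over 1.5-fold in either direction. Its ligand gene Cx3cl1 had 1850 and 945 counts in kidney, a ratio of −0.30 (−0.41 to −0.18), and 97 and 119 counts in heart, a ratio of 0.30 (−0.09 to 0.71). An antisense gene, Gm33858, shares 1.73% of the exon bases of Cx3cr1 and had at most 7 counts in any library.

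**Figure D2:**
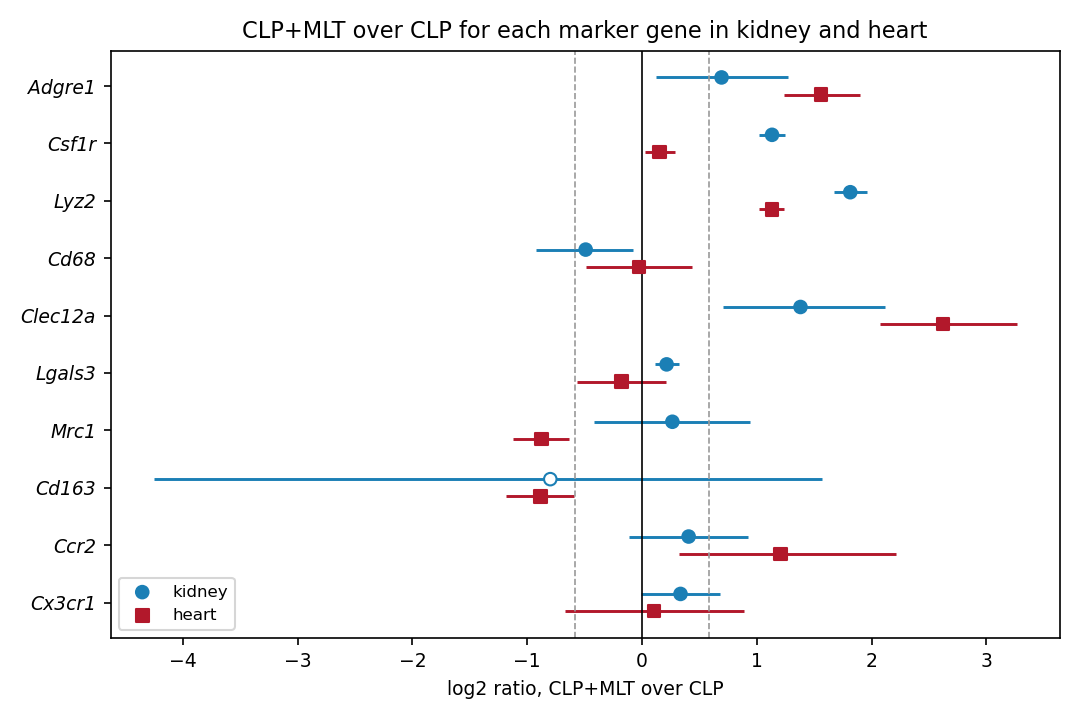
Log2 ratio of CLP+MLT over CLP for each marker gene, with kidney as blue circles and heart as red squares. Bars are 95% exact intervals of counting error, dashed lines mark 1.5-fold, and the open circle is Cd163 in kidney, under the filter. Heart lies to the right of kidney for Adgre1 and Clec12a and to the left for Csf1r, Lyz2 and Mrc1, with intervals of the difference that leave out 0.

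The kidney and heart ratios were set against each other gene by gene, through the ratio of the 2 ratios with its exact counting interval. For 5 of the 10 markers this interval left out 0, with the heart ratio above the kidney ratio for 2 and below it for 3. The share of all genes with such an interval was not obtained, so the count is not a trait particular to the markers. Among other listed genes, Il34, Csf1, Hp and Ctsl also had intervals that left out 0, whereas those of Ccl2, Ccl12 and Spi1 held it. Clec12a was 1.24 higher in heart (0.30 to 2.18) and Adgre1 0.86 higher (0.19 to 1.53). Mrc1 was lower in heart by a log2 difference of −1.14 (−1.87 to −0.41), Csf1r by −0.98 (−1.15 to −0.81) and Lyz2 by −0.68 (−0.87 to −0.50). For Lyz2 this compares 2 rises of unequal size, whereas Mrc1 was called in heart alone and Csf1r in kidney alone. The other 5 markers, Cd68, Cd163, Ccr2, Cx3cr1 and Lgals3, had intervals that held 0. Scaled by library size alone, the heart ratios of Cd68 and Ccr2 also lay above their kidney ratios.

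Reads on the 10 markers together went from 163 to 292 CPM in kidney, a log2 ratio of 0.84 (0.77 to 0.90), and from 182 to 264 CPM in heart, a ratio of 0.54 (0.47 to 0.61). A few genes made up most of these sums. Lgals3 took 44.8% of the marker reads in the CLP kidney and 29.1% in the CLP+MLT kidney, while Lyz2 took 13.8% and 27.2%. In heart Lyz2 took 33.7% and 50.8%. Mrc1 and Cd163 together made up more of the marker reads in the CLP heart, at 13.7% and 9.42%, than in the CLP+MLT heart, at 5.15% and 3.51%.

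Ordered by TPM within a library, Lgals3 (86.7), Lyz2 (37.6), Csf1r (17.7) and Cd68 (11.2) led in the CLP kidney. They were followed by Cx3cr1 (3.17), Adgre1 (1.47), Ccr2 (0.955), Mrc1 (0.634), Clec12a (0.471) and Cd163 (0.0986). Mrc1 and Clec12a were the only neighbours in that order whose counting intervals did not separate them. In the CLP+MLT kidney Lyz2 (99.4) stood above Lgals3 (75.5) and Clec12a (0.932) above Mrc1 (0.573). There Ccr2 (0.953) and Clec12a did not separate, and the remaining order was the same as in the CLP kidney.

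In the CLP heart Lyz2 (81.2) and Csf1r (16.6) led. Lgals3 (7.03), Cd68 (6.99) and Mrc1 (6.84) did not separate from their neighbours within that trio, and Cd163 (5.47), Adgre1 (3.44), Cx3cr1 (0.690), Clec12a (0.562) and Ccr2 (0.238) followed, with no separation between Cx3cr1 and Clec12a. In the CLP+MLT heart Adgre1 (11.2) came directly after Lyz2 (196) and Csf1r (20.4). Next came Cd68 (7.57) and Lgals3 (6.85), which did not separate, then Mrc1 (4.11), Clec12a (3.87) and Cd163 (3.27), in which no neighbours separated. Cx3cr1 (0.819) and Ccr2 (0.616) closed the order and did not separate. In heart Mrc1 and Cd163 stood above Adgre1 in the CLP library and below it in the CLP+MLT library.

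A ratio of 2 markers within a library does not depend on the scaling between libraries. Set against Csf1r in heart, Adgre1 went from 11.6 to 30.8 reads per 100 Csf1r reads (2.65-fold, 2.08 to 3.41). Clec12a went from 3.23 to 18.2 (5.62-fold, 3.73 to 8.71), and Lyz2 from 111 to 219 (1.97-fold, 1.75 to 2.22). Mrc1 went the other way, from 45.4 to 22.2 (0.489-fold, 0.404 to 0.592). The pair Cd163 and Mrc1 kept its proportion, with 68.6 and 68.2 reads of Cd163 per 100 of Mrc1 (0.995-fold, 0.762 to 1.30). Clec12a per 100 Mrc1 reads went from 7.13 to 81.8 (11.5-fold, 7.42 to 18.2).

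In kidney the ratios to Csf1r were lower in the CLP+MLT library for 5 markers with intervals that left out 1. Csf1r itself was 2.19-fold higher there, so a gene at an unchanged level would stand at 0.456-fold against it. Between the kidney libraries Mrc1, Cx3cr1, Ccr2 and Lgals3 had scaled log2 ratios of 0.26, 0.34, 0.41 and 0.21, so they were lower only relative to Csf1r. Cd68 went from 13.8 to 4.46 reads per 100 Csf1r reads (0.324-fold, 0.238 to 0.437). Lgals3 went from 157 to 83.3 (0.529-fold, 0.476 to 0.588), and Mrc1 from 3.95 to 2.17 (0.549-fold, 0.339 to 0.883). The chemokine receptors followed, Cx3cr1 at 0.576-fold (0.446 to 0.742) and Ccr2 at 0.605-fold (0.419 to 0.873). Lyz2 alone was higher relative to Csf1r with an interval that left out 1, going from 48.4 to 77.7 (1.60-fold, 1.41 to 1.82). For Adgre1 (0.740-fold, 0.493 to 1.11), Clec12a (1.20-fold, 0.738 to 1.99) and Cd163 (0.242-fold, 0.0239 to 1.36) the intervals held 1.

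**Figure D3:**
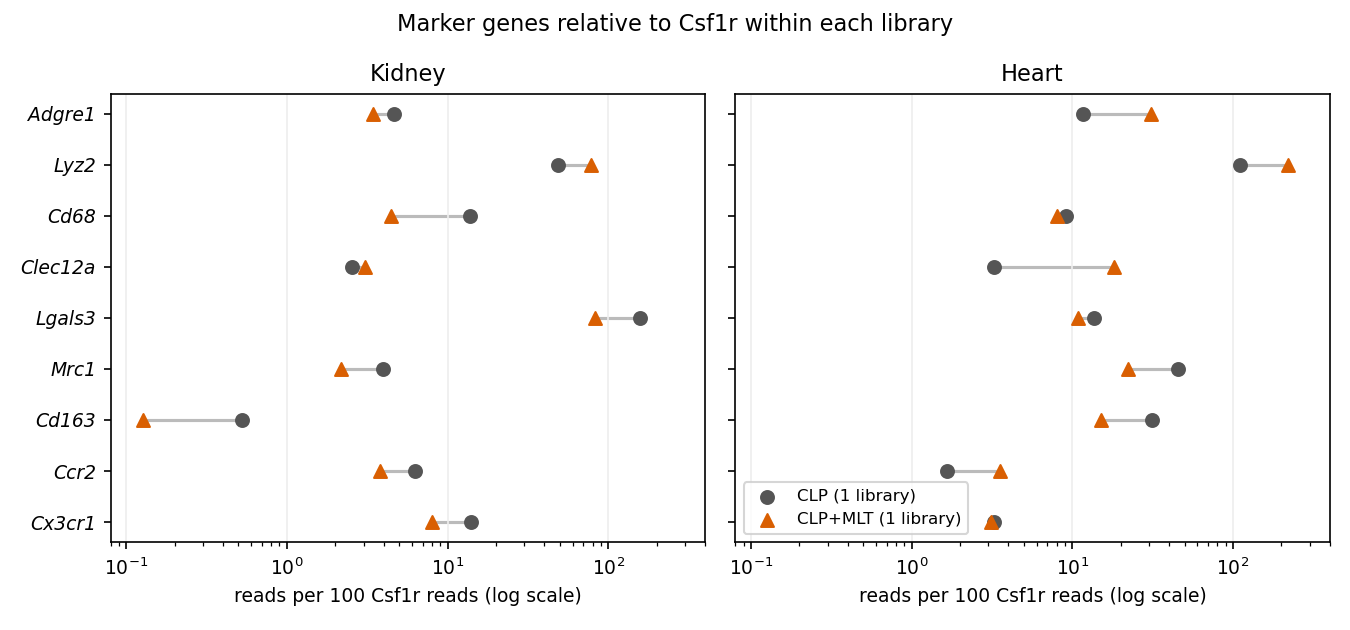
Reads of each marker per 100 reads of Csf1r in the same library, on a log axis, with kidney on the left and heart on the right. Grey circles are CLP and orange triangles CLP+MLT, 1 library each. In kidney the triangle of Cd68 lies at 4.46 against a circle at 13.8, and in heart that of Clec12a lies at 18.2 against 3.23.

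Other genes of phagocytes were taken from lists chosen with earlier results of these data known, and are given by their counts, to be read against the shares of all genes called, 9.1% higher and 9.02% lower in kidney and 8.51% and 10.4% in heart. By library size alone these kidney shares were 5.32% and 15.7%. Of 25 genes shared by most macrophages and monocytes, all past the filter, 11 were called higher and 4 lower in kidney, with a median log2 ratio of 0.46, although scaling by library size alone left 7 higher and 6 lower. In heart 2 were higher and 4 lower, with a median of −0.04, or 0.02 by library size alone. Spi1, the gene of PU.1, had 129 and 122 counts in kidney, a ratio of 0.59 (0.22 to 0.96) just past the limit, and 175 and 219 in heart, a ratio of 0.33 (0.04 to 0.63). Aif1, a cytoskeletal protein of macrophages, was higher in both tissues, by 1.69 in kidney and 1.08 in heart. Fcgr4, an activating antibody receptor, was lower in both, by −1.21 and −1.29. The largest difference on this list was that of Cd14, the coreceptor for bacterial lipopolysaccharide, which had 787 and 69 counts in kidney, a ratio of −2.83 (−3.22 to −2.48), and 41 and 56 in heart, a ratio of 0.45 (−0.15 to 1.08).

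Of 24 genes of resident macrophages, 14 passed the filter in kidney, with 3 called higher and 2 lower (2 higher and 3 lower by library size alone), and 18 in heart, with 1 higher and 4 lower. In heart the scavenger receptor gene Msr1 was lower (262 and 103 counts, −1.33), as Mrc1 and Cd163 were, and so was F13a1, the coagulation factor subunit of resident macrophages (−0.66). Marco, another scavenger receptor, went the other way in heart, from 20 to 120 counts, a ratio of 2.57 (1.90 to 3.36). In kidney Marco was under the filter, with 0 and 14 counts. F13a1 was lower in kidney too (91 and 19 counts, −1.57), whereas Igf1 was higher there (1.18). Selenop was also lower in kidney (53211 and 12532 counts, −1.41). At 2169 and 814 CPM it lay far above every marker, and which cells made it was not tested. Lyve1, which marks vessel-associated macrophages and lymphatic vessels, had 112 and 137 counts in heart, a ratio of 0.30 (−0.07 to 0.67), and was not called. The complement genes C1qa, C1qb and C1qc, made largely by macrophages, had a median of 0.09 in kidney (−0.10 by library size alone) with none called and −0.55 in heart, where C1qa was called lower (−0.80).

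Of 20 monocyte genes, 13 passed the filter in kidney, with 3 called higher and 2 lower, or 2 higher and 4 lower when scaled by library size alone. In heart 14 passed, with 3 higher and 1 lower. Itgal and Spn, surface proteins of patrolling monocytes and of lymphocytes, were higher in both tissues, by 0.82 and 1.42 in kidney and by 1.26 and 1.19 in heart. Ly6c2, which defines classical monocytes, had 11 and 3 counts in kidney and 29 and 19 in heart, under the filter in kidney and not called in heart. S100a4 was at 0 in all 4 libraries. Of the reads on a gene or on no feature, 52.1% to 52.6% per library were on no feature. Whether the counting missed S100a4 or other genes at 0 was not tested. Of 20 genes of activated and repair macrophages, 10 passed in kidney (3 higher and 3 lower, or 2 and 4 by library size alone) and 14 in heart (4 higher, 2 lower). In heart Tnf, the inflammatory cytokine, was higher (15 and 44 counts, 1.53) and Nos2, the inducible nitric oxide synthase, was higher (60 and 112 counts, 0.90), while Gpnmb, a marker of lipid-laden macrophages, was lower (−1.32). In kidney Cd86, a costimulatory ligand, was higher (24 and 41 counts, 1.42), and Spp1, which injured tubules make in bulk, was lower (−2.28).

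**Figure D4:**
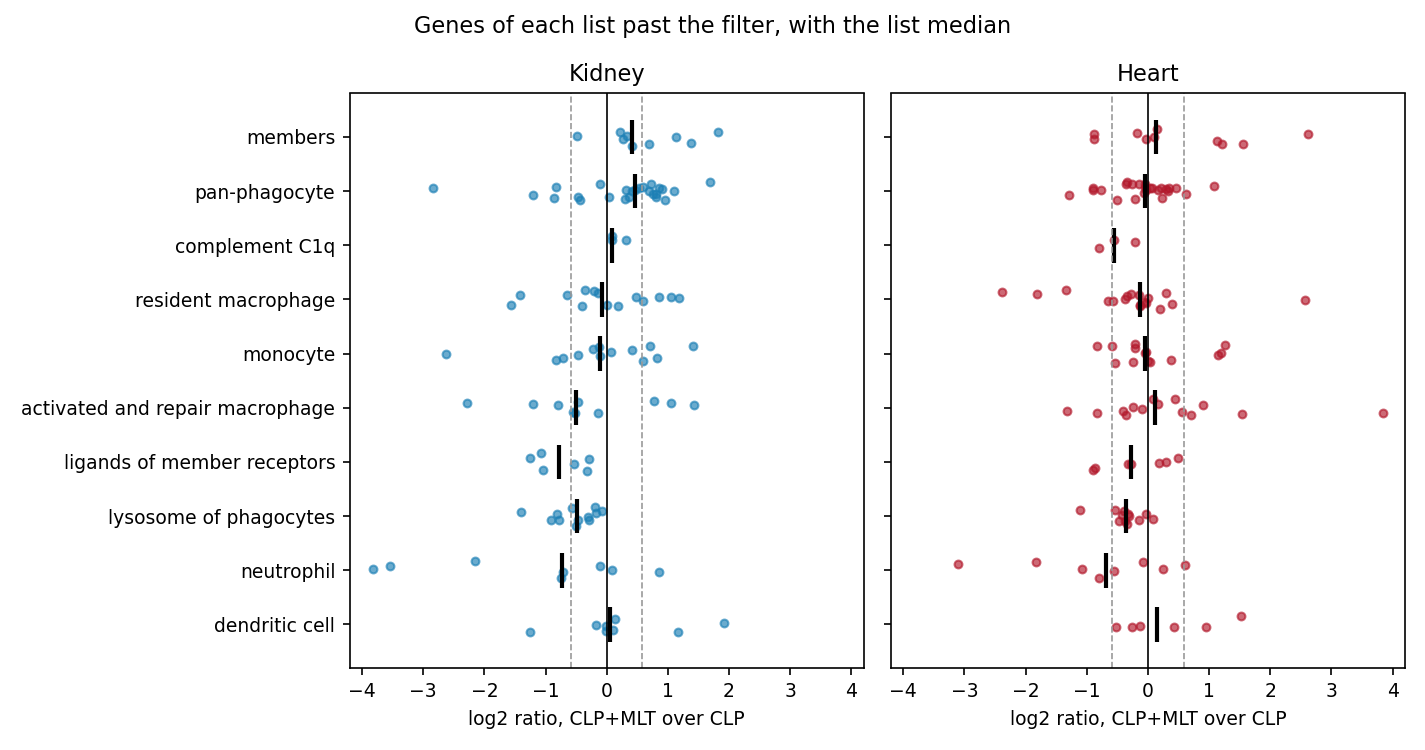
Log2 ratio of CLP+MLT over CLP for every gene past the filter in 10 lists, with kidney on the left and heart on the right. Each point is a gene, black bars are list medians and dashed lines mark 1.5-fold, with no error bars. The medians of the 10 markers lie at 0.41 in kidney and 0.13 in heart, and those of the neutrophil list at −0.73 and −0.68.

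Markers of other cells also differed between the libraries, and their part in the marker results was not tested. Of 14 neutrophil genes, 8 passed in each tissue, with 1 higher and 4 lower in kidney (0 and 5 by library size alone) and 0 higher and 4 lower in heart, while Ly6g and Mpo were at 0 in all 4 libraries. The list summed to 487 and 121 CPM in kidney and to 255 and 64.8 CPM in heart, most of it, save in the CLP+MLT heart, Lcn2, which injured epithelium makes too. Ngp, also on this list, was lower in both tissues, with 53 and 2 counts in kidney (−3.82) and 37 and 10 in heart (−1.83). Retnlg, another neutrophil gene, was the one called higher in kidney (0.86). Of 12 dendritic cell genes, 8 passed in kidney and 6 in heart, with 2 higher in each, among them Batf3 in both (1.17 and 1.53). That list summed to 130 and 129 CPM in kidney and to 110 and 132 CPM in heart, and Siglech was at 0 in all 4 libraries. In heart most of the sum was Zbtb46, at 68.6 and 92.0 CPM.

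Of 10 B cell genes, 3 passed in kidney and 2 in heart. Their sum was 2.89 and 8.90 CPM in kidney and 3.62 and 10.004 CPM in heart, through Ighm above all (2.76 and 2.19), whereas Ms4a1 was at 0 in all 4 libraries. T and NK cell genes summed to 4.61 and 3.83 CPM in kidney and to 3.68 and 2.22 CPM in heart, where Cd3d and Cd3g were at 0 in both libraries. Of 8 genes of peritoneal macrophages, which could cling to an organ's surface, 5 passed in kidney and 6 in heart, with 2 lower in each and none higher. Their sum was 39.2 and 25.6 CPM in kidney and 318 and 149 CPM in heart. In heart most of that difference was Saa3, an acute phase gene of many cells (184 and 43.1 CPM), with Prg4 (57.3 and 28.1 CPM), whereas Gata6, a factor of these macrophages and also of heart muscle, had 581 and 589 counts there, a ratio of 0.03 (−0.14 to 0.20). The 2 genes called lower in kidney were Gata6 (−1.21) and Saa3 (−0.94). Cd5l had at most 1 count in any library and Alox15 at most 4.

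Beside the heart markers stood 7 kidney epithelium genes past the filter in heart, 4 of them called higher, and 8 cardiomyocyte genes, 3 of them called lower. In kidney 8 epithelium genes passed, with 2 higher and 1 lower (1 and 1 by library size alone), and 7 cardiomyocyte genes, with 3 higher. Endothelial genes had a median of −0.37 in kidney (1 of 8 lower, or 4 of 8 by library size alone) and 0.13 in heart (1 of 8 higher), and fibroblast genes had 1 of 6 lower in kidney (2 by library size alone) and 1 of 7 in heart. Erythroid genes had 1 of 5 higher (0 by library size alone) and 1 lower in kidney and none called of 5 in heart. Of 5 fat cell genes, 2 passed in kidney, both lower, and none in heart.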

How the data were processed

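RNA-seq libraries were prepared by the authors from poly-A RNA of flash-frozen kidneys and hearts, 1 library per group, from total RNA extracted with Trizol. The authors trimmed reads with trim-galore, aligned them to mm10 with HISAT2 2.1.0 and deposited raw, unnormalized counts of reads on each gene. HTSeq also stands in the submitters' processing notes, but the sources used here give neither its version nor its strand setting, and no annotation. Each table ends with 5 totals that name no gene, which held 65.5% to 72.8% of the entries and were left out of library sizes. On genes, 22927905 (CLP kidney), 16474248 (CLP+MLT kidney), 16623050 (CLP heart) and 15883057 (CLP+MLT heart) reads were counted.

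Gene symbols, positions and exon lengths were taken from GENCODE M21 for GRCm38, the build of mm10, and 55141 of 55401 identifiers had a symbol. TMM factors were computed within each tissue with edgeR 4.0.16 in R 4.3.3, and DESeq2 1.42.0 gave size factors as an alternative. Ratios, intervals and TPM were obtained in scipy 1.17.1, numpy 2.4.6 and pandas 2.3.3 under Python 3.11.15, with figures from matplotlib 3.10.9. A prior count of 0.5 was added to the log2 ratio, and a gene needed a mean of 10 counts or more over the libraries of a tissue. Promoter windows came from RefSeq (GRCm38.p6). The ratios, intervals and calls within a tissue were tested on simulated counts that held counting error only, with the scaling taken as known. That test did not cover variation between mice or copies made by PCR.

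The markers and the 18 other lists were chosen with earlier results of these data known. Named were the 10 markers, their listed ligands with Hp, and Lyz1. From each list, genes were named out of the up to 3 called in a tissue with the largest change and a mean of at least 20 counts. Not all genes that met this rule were named. Other genes (Hmgxb3, Gm33858, Spi1, Lyve1, Ly6c2, C1qb, C1qc, Cd5l, Alox15, Zbtb46 and genes at 0) were named after their values were seen. Alternatives were library size, DESeq2 and upper-quartile scaling, TMM without mitochondrial and haemoglobin genes, dropping the filter, raising it to 50 counts, raising the prior count to 5, a 2-fold limit, an interval wholly beyond 1.5-fold, edgeR's exact test (p of at most 0.01) at assumed coefficients of variation of 0.2 and 0.4, leaving out single markers and, chosen after seeing the data, removal of a trend on exon length.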

Additional observations from a re-analysis of the deposited data

Results flagged for a closer look

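For 5 markers the heart and kidney log2 ratios differed by more than counting error, judged by the interval of the ratio of the ratios and not by replicates. The share of all genes that differ in this way was not obtained. Heart minus kidney was 1.24 for Clec12a, 0.86 for Adgre1, −0.68 for Lyz2, −0.98 for Csf1r and −1.14 for Mrc1.

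Among the other genes named, Csf1, Nr4a1, C1qb, Kdr, Tnni3, Ryr2 and Myl2 had counting intervals on opposite sides of 0 in kidney and heart, and whether these differences exceed the spread between mice was not tested. Csf1, the Csf1r ligand, had −0.32 in kidney and 0.18 in heart. Nr4a1, a transcription factor of patrolling monocytes, had −0.82 and 0.38. C1qb, a chain of complement C1q, had 0.31 and −0.55. Kdr, the endothelial receptor for VEGF, had −0.50 and 0.91. The cardiomyocyte genes Tnni3, Ryr2 and Myl2 had 1.11, 1.95 and 1.81 in kidney, from 30, 14 and 10 counts in the CLP library, and −1.27, −0.19 and −1.33 in heart.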

How the results depend on the processing

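With 1 library per group no replicate could be left out, and variation between mice could be assumed but not estimated. No paired analysis was possible because each group holds a single library. Of 114 single-marker ratios recomputed under other scalings, another prior count or without the length trend, no called ratio changed direction, and the uncalled ratio of Cd68 in heart lay between −0.03 and 0.14. In kidney the 4 calls among the markers became 3 (Csf1r, Lyz2 and Clec12a) at an assumed variation of 0.2 and 0 at 0.4. In heart the 6 calls became 3 (Adgre1, Lyz2 and Clec12a) at 0.2 and 1 (Clec12a) at 0.4. Calls over all kidney genes went from 3068 to 2014 with a mean of at least 50 counts, 1368 at 2-fold, 1180 with the interval wholly beyond 1.5-fold, 619 at a variation of 0.2 and 90 at 0.4. The heart calls went from 2997 to 1878, 1441, 1166, 662 and 63 in the same order. A mean of at least 50 counts ended the calls of Clec12a in kidney and Ccr2 in heart and also took out Mrc1 in kidney and Cx3cr1 in heart, which had not been called. A 2-fold limit ended the calls of Adgre1 in kidney and of Mrc1 and Cd163 in heart, and the stricter interval those of Adgre1 in kidney and Ccr2 in heart. Library size alone turned the split of kidney calls from 50.2% higher to 25.3% higher.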
